A study of Mus musculus with 30 samples.

Results

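Callus RNA of diet-induced obese (DIO) mice on d7 after fracture was compared with callus RNA of lean mice on d10, across all genes. The comparison rests on 6 of the 30 samples of the series, 3 DIO d7 libraries and 3 Lean d10 libraries, each made from the callus of 1 mouse. All mice were male C57BL/6J, 20 weeks old when an open osteotomy of the right tibia was made and fixed with an intramedullary nail. DIO mice were fed a high-fat diet and lean mice a lean diet, both from before the fracture until harvest. The soft tissue around the callus was removed before RNA was extracted, and poly(A) RNA was sequenced. The days were chosen by the data. In each diet the day with the highest mean of Acan and Col2a1 was taken, so that calli with much cartilage were set side by side. The lean libraries of the series are of d3, d5, d7 and d10 only, so d10 is its last lean day. Its DIO libraries run to d21. Diet and day of harvest differ together between the groups and cannot be told apart within these 6 libraries.

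A fracture of this kind heals through a cartilage template. Chondrocytes fill the gap, enlarge and mineralize their matrix, and osteoblasts and osteoclasts, the cells that build and resorb bone, then replace the cartilage with woven bone. Osteoclasts form by fusion of cells of the macrophage lineage in answer to the cytokines CSF1 and RANKL. They dissolve mineral with acid and digest the exposed matrix with proteases. Muscle beside the bone is injured too and regenerates from satellite cells, which pass through a sequence of myogenic transcription factors and embryonic myosins. A callus library holds RNA of all these cells at once, so fewer cells of a type and less RNA per cell cannot be told apart.

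Total counts ran from 14888242 to 20489678 over the 6 libraries. Levels are given as CPM, counts scaled to the library total multiplied by its TMM factor, on 1 scale for all 30 libraries. They are listed in the order of replicates 1, 2 and 3. The TMM factor adjusts the total of each library and was computed over all 30 libraries. It was 0.7791 for Lean d10 replicate 1 and between 0.9172 and 0.9465 for the rest of the 6 libraries. Scaling to the total alone would give lower levels, most of all in Lean d10 replicate 1. Changes are log2 fold changes of DIO d7 minus Lean d10 from a fit of the 6 libraries with edgeR, with the standard error (SE) and the Benjamini-Hochberg adjusted p. A gene is said to be past the threshold, or to have risen or fallen, where that p was under 0.05.

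The genes that chose the days did not place the 6 calli evenly. Acan, the core protein of the large cartilage proteoglycan, was at 3119, 2275 and 3834 CPM on DIO d7 and at 6406, 1149 and 1025 CPM on Lean d10. Col2a1, the main collagen of cartilage, was at 21953, 9471 and 26622 CPM on DIO d7 and at 46852, 8884 and 7121 CPM on Lean d10. For both genes, Lean d10 replicate 1 was the highest of the 6 calli and the other 2 Lean d10 calli were the lowest. The means of Acan, 3076 and 2860 CPM, were close with all calli, but without Lean d10 replicate 1 the lean mean was 1087 CPM. The means of Col2a1 were 19349 and 20952 CPM, and 8002 CPM on Lean d10 without that callus. The cartilage match of the groups therefore rests on 1 callus, and the counts of the main gene lists are given with and without it.

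**Figure D1:**
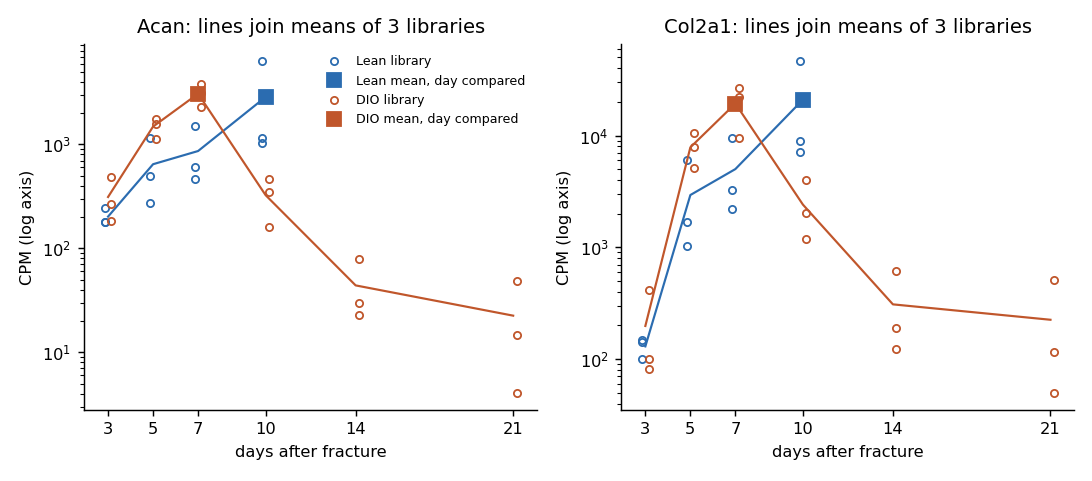
Level of Acan (left) and Col2a1 (right) in CPM on a log axis against days after fracture, with open circles for single libraries, lines through the means of 3 libraries, blue for lean and orange for DIO mice; the filled squares mark the means of the 2 groups compared. For Acan the DIO mean was highest on d7 at 3076 CPM and the lean mean on d10, the last lean day here, at 2860 CPM. On that day 1 lean library stood at 6406 CPM and the others at 1149 and 1025 CPM.

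Lean d10 replicate 1 also stood apart in genes of other tissues. The summed level of 22 genes of adult muscle contraction was 1758 CPM in it, against 23599 and 16507 CPM in the other Lean d10 calli and 29245, 11112 and 18984 CPM on DIO d7. The mean log2 CPM of 21 genes of neutrophil granules and maturation was 3.29 in it and between 5.66 and 7.82 in the other 5 libraries. The summed neutrophil level, 4860 CPM, was not the lowest of the 6, since DIO d7 replicate 2 was at 3274 CPM. Summed over 21 genes of cartilage matrix, the same lean callus was at 88396 CPM and the other 5 between 18082 and 52958 CPM. The part of this callus in the results was not tested beyond leaving it out.

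Of 15481 genes tested, 237 (1.53%) were past the threshold. On DIO d7, 86 genes (0.556%) were higher and 151 (0.975%) were lower than on Lean d10, and 2414 genes had an unadjusted p under 0.05. The median log2 fold change of all genes tested was 0.00. The number of calls depended on single libraries. Without Lean d10 replicate 1 it was 613, with 323 genes higher (2.03%) and 290 lower (1.82%), and without any 1 of the other 5 libraries it was between 35 and 76. Of the 237 genes, 20 were past the threshold in each of the 6 fits that left out 1 library, 18 of them lower on DIO d7 and 2 higher. The 18 lower genes include the osteoclast genes Acp5, Dcstamp, Ocstamp, Oscar and Mmp9, and the 2 higher genes are Chrna1, a subunit of the muscle acetylcholine receptor, and Hsd11b2, an enzyme that inactivates glucocorticoids.

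**Figure D2:**
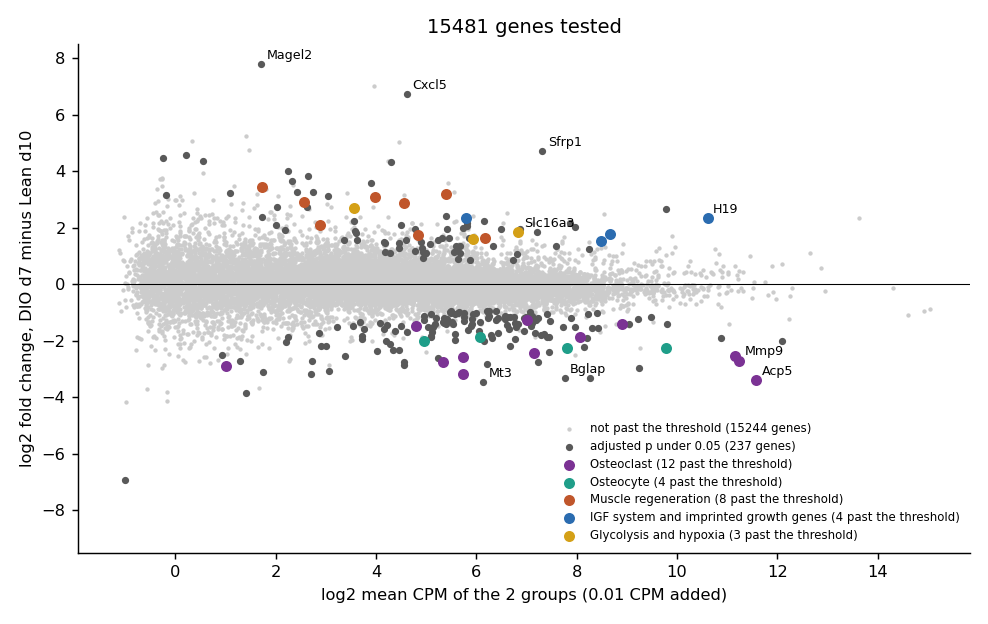
Log2 fold change of DIO d7 minus Lean d10 against log2 of the mean CPM of both groups for 15481 genes tested; grey points did not pass the threshold, dark points did, and colours mark the members of 5 gene lists that did. The 12 coloured osteoclast genes all lie below 0, down to Acp5 at -3.40, and the 8 coloured genes of muscle regeneration all lie above it.

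Most osteoclast genes fell on DIO d7. Of 16 osteoclast genes tested, 12 fell on DIO d7 and 0 rose, against 0.975% of all genes lower, and the median log2 fold change of the list was -2.35. Acp5, the tartrate-resistant acid phosphatase that marks osteoclasts, was at 386, 660 and 551 CPM on DIO d7 and at 5034, 5501 and 6257 CPM on Lean d10. Every Lean d10 callus lay several times above every DIO d7 callus, and the fitted level was 10.6-fold lower on DIO d7 (log2 fold change -3.40, SE 0.31, adjusted p = 0.00526). The gene lies on chromosome 9, and RefSeq places 3 starts there. The window of 250 bases before to 50 after the start at which a script found the letters TCANGTG, the core bound by the MITF and TFE factors of osteoclasts and macrophages, is shown because Acp5 fell most in this list. It spans chr9:22130549-22130848 on the minus strand (GRCm38.p6), with the match in capitals.

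Acp5: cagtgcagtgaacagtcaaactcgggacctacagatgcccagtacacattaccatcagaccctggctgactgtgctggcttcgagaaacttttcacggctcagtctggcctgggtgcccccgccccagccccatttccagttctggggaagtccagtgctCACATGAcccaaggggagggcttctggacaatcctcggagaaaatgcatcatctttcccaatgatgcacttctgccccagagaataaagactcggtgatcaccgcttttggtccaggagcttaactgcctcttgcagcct

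The letters TCANGTG, read on both strands, were found in 6 of 13 such windows of the 7 osteoclast genes past the threshold that have a RefSeq window here, and in 14.3% of all 32851 windows of the same length. The match is a description and not a measured site.

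The other osteoclast genes past the threshold cover fusion, acid secretion and matrix digestion. Mmp9, a gelatinase of osteoclasts and neutrophils, was at 587, 548 and 792 CPM on DIO d7 and at 4384, 3986 and 4155 CPM on Lean d10 (log2 fold change -2.71, SE 0.27, adjusted p = 0.00599). Ctsk, the collagen-digesting cathepsin of osteoclasts, was at 486, 941 and 595 CPM against 2877, 3717 and 5076 CPM (-2.54, SE 0.35, adjusted p = 0.014). The lowest Lean d10 value was in both genes over 3 times the highest DIO d7 value. Dcstamp, a membrane protein needed for osteoclast fusion, was at 7.21, 15.1 and 9.62 CPM against 85.3, 96.6 and 104 CPM (-3.18, SE 0.29, adjusted p = 0.00526). Ocstamp, its partner in fusion, was at 11.3, 18.2 and 17.3 CPM against 101, 86.5 and 86.9 CPM (-2.57, SE 0.23, adjusted p = 0.00526). Oscar, a receptor that costimulates osteoclasts, was at 9.34, 12.2 and 10.3 CPM against 50.7, 66.5 and 94.6 CPM (-2.75, SE 0.26, adjusted p = 0.00526). None of these genes had overlapping groups.

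The proton pump subunit Atp6v0d2, the integrin Itgb3, the RANKL receptor Tnfrsf11a, the calcitonin receptor Calcr, the chloride transporter Clcn7 and the pump subunit Tcirg1 fell as well, by log2 values from -2.89 for Calcr to -1.25 for Clcn7. The 4 members that did not pass were Nfatc1, the master transcription factor of osteoclasts (126, 112 and 130 CPM against 327, 178 and 211 CPM, adjusted p = 0.11), Ostm1, Tm4sf19 and Car2, the carbonic anhydrase that red cells hold too. Car2 alone had a positive value, 0.37 with SE 0.83. With Lean d10 replicate 1 left out, 14 of the 16 genes were lower (1.82% of all genes lower) and the median was -2.53. The count was 8 without Lean d10 replicate 2 or DIO d7 replicate 3, 7 without DIO d7 replicate 2, 6 without Lean d10 replicate 3 and 5 without DIO d7 replicate 1, while the median stayed between -2.53 and -2.01 in these 6 fits.

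Some single genes of lysosomes are given as well, picked because they fell, with no count over all lysosomal genes. Glb1, the lysosomal galactosidase, had a mean of 67.5 CPM ± 8.80 (SD, n = 3) on DIO d7 and 219 CPM ± 32.7 on Lean d10 (log2 fold change -1.71, adjusted p = 0.00774 with edgeR). Naglu, which degrades heparan sulfate, Npc2, a cholesterol carrier of lysosomes, and Ctsz, a cathepsin, fell by log2 values of -1.48, -1.17 and -1.24. The V-ATPase is the pump that acidifies lysosomes and the resorption pit. Of its 19 tested subunits with symbols that begin with Atp6v0 or Atp6v1, 6 fell and 0 rose (0.975% of all genes lower). Their median was -0.79, in a group chosen after its values were seen. The 6 were Atp6v0d2, which is also in the osteoclast list, Atp6v0b, Atp6v0c, Atp6v1b2, Atp6v1c1 and Atp6v1f. Tcirg1, the pump subunit given above, is not among the 19. Snx10, a sorting nexin needed for resorption, fell by -2.17 (SE 0.27), and Vdr, the vitamin D receptor, by -1.42 (SE 0.22).

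Signals and receptors upstream of osteoclasts moved less evenly. Csf1r, the receptor for CSF1 on macrophages and osteoclast precursors, was at 175, 178 and 176 CPM on DIO d7 and at 416, 496 and 619 CPM on Lean d10 (log2 fold change -1.54, SE 0.21, adjusted p = 0.014). Cd68, a lysosomal membrane protein of macrophages and osteoclasts, was at 130, 129 and 131 CPM against 318, 368 and 421 CPM (-1.52, SE 0.19, adjusted p = 0.0102). The 3 DIO d7 calli were nearly equal in both genes. Csf1 itself did not pass (108, 51.9 and 82.2 CPM against 191, 151 and 170 CPM, -1.09, adjusted p = 0.0941). Tnfsf11, which encodes RANKL, was at 26.1, 27.6 and 13.1 CPM against 33.8, 17.5 and 29.7 CPM, and Tnfrsf11b, its decoy receptor osteoprotegerin, at 48.8, 56.2 and 34.9 CPM against 38.8, 7.81 and 37.1 CPM. The groups overlapped in both, with adjusted p = 0.727 and 0.536. Of 7 genes of RANKL, OPG and CSF1 signalling tested, 2 fell, Tnfrsf11a and Csf1r, and 0 rose, with and without Lean d10 replicate 1. Over all genes, 0.975% were lower with that replicate and 1.82% without it. Neither Tnfrsf11a nor Csf1r passed in the other 5 fits that left out 1 library. About 15.1% of the exon length of Csf1r lies opposite Hmgxb3, and the strand setting of the counting is not given in the sources used here.

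Macrophage markers as a whole did not move with Csf1r and Cd68. Of 21 monocyte and macrophage genes tested, those 2 fell and 0 rose (0.975% of all genes lower), and the median was 0.04. Adgre1, which encodes the macrophage marker F4/80, was at 33.8, 32.4 and 29.5 CPM on DIO d7 and at 17.6, 26.5 and 28.6 CPM on Lean d10 (0.39, SE 0.22, adjusted p = 0.441). C1qa, a complement gene made by macrophages, was at 168, 164 and 179 CPM against 198, 204 and 193 CPM (-0.23, SE 0.17, adjusted p = 0.563), with each DIO d7 callus slightly below each Lean d10 callus. The count of 2 became 0 without DIO d7 replicate 1, without DIO d7 replicate 2 or without Lean d10 replicate 3, and 1 without DIO d7 replicate 3 or Lean d10 replicate 2.

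Genes of bone-forming cells were lower on DIO d7 in part. Of 20 genes of osteoblasts and bone matrix tested, 4 fell on DIO d7 and 0 rose (0.975% of all genes lower), 19 had a lower mean, with a median of -0.88, and 11 did not overlap and were lower, against 11.4% of all genes tested. Bglap, which encodes osteocalcin of mature osteoblasts, was at 37, 27.5 and 54.4 CPM on DIO d7 and at 219, 440 and 524 CPM on Lean d10 (-3.32, SE 0.39, adjusted p = 0.00774). Its neighbour Bglap2 was at 60.8, 34.5 and 75 CPM against 343, 560 and 781 CPM (-3.31, SE 0.39, adjusted p = 0.00801). The transcripts of Bglap, Bglap2 and Bglap3 are near-identical over 99.8% of Bglap, so how the reads were split among them is uncertain. Spp1, which encodes osteopontin of osteoblasts, osteoclasts and hypertrophic chondrocytes, was at 2516, 1673 and 1055 CPM against 8620, 5139 and 7180 CPM (-2.02, SE 0.39, adjusted p = 0.0454). Ifitm5, a membrane protein of mineralizing osteoblasts, fell by -1.04 (SE 0.17, adjusted p = 0.0272), and shares 29.7% of its exon length with Gm45717 on the same strand.

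Bglap and Spp1 are shown because they encode the 2 matrix proteins of the list past the threshold that have a window here. The capitals mark ACCACA, the core bound by RUNX factors, which a script found on the plus strand of each gene 132 and 128 bases before the start. The windows are chr3:88384417-88384716 on the minus strand and chr5:104434861-104435160 on the plus strand (GRCm38.p6, RefSeq).

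Bglap: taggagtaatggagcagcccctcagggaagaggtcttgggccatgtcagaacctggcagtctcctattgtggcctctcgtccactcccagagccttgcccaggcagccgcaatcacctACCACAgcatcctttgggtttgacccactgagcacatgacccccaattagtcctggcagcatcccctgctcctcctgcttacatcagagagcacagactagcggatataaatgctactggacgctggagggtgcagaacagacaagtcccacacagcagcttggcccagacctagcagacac

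Spp1: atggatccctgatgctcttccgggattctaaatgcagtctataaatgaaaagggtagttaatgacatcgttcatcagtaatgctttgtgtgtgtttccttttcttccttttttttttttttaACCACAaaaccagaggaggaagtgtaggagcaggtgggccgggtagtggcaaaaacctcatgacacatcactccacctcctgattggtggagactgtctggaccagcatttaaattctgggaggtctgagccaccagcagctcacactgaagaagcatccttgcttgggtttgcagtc

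Either strand of ACCACA was found in 16.8% of all 32851 windows, so a match is common. Of 4 windows of the 3 osteoblast genes past the threshold that have one here, 2 held it, and Ifitm5 had no match.

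Other genes of the osteoblast lineage did not pass. Runx2, the transcription factor that starts the lineage, was at 94.6, 62.2 and 78.7 CPM on DIO d7 and at 90.8, 103 and 127 CPM on Lean d10 (-0.45, SE 0.21, adjusted p = 0.351). Sp7, which acts after Runx2, was at 330, 212 and 359 CPM against 396, 506 and 457 CPM (-0.60, SE 0.25, adjusted p = 0.29), without overlap. Col1a1, the main collagen of bone, was at 27234, 15913 and 28538 CPM against 52960, 32881 and 44237 CPM (-0.87, SE 0.37, adjusted p = 0.299), and its groups did not overlap. Ibsp, which encodes bone sialoprotein, overlapped (-0.23, SE 0.34, adjusted p = 0.798). Without Lean d10 replicate 1 the list had 6 lower genes and a median of -0.75, and without another library it had 1 or 2.

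Genes of osteocytes, the cells enclosed in mineralized bone, were lower together. Of 7 tested, 4 fell, 0 rose (0.975% of all genes lower) and all 7 had a lower mean, with a median of -1.88. Sost, which encodes the WNT inhibitor sclerostin, was at 32.3, 23.2 and 30.8 CPM on DIO d7 and at 72.5, 130 and 114 CPM on Lean d10 (-1.88, SE 0.25, adjusted p = 0.0127). Dmp1, a phosphoprotein of mineralized matrix, was at 434, 196 and 287 CPM against 1894, 807 and 1667 CPM (-2.27, SE 0.41, adjusted p = 0.0382). Mepe, of the same family, was at 87.8, 84.4 and 61.8 CPM against 258, 307 and 548 CPM (-2.26, SE 0.31, adjusted p = 0.014). Every DIO d7 callus was below every Lean d10 callus in these genes. Dkk1, another WNT inhibitor, fell by -2.01 (SE 0.26, adjusted p = 0.0105). Phex, a peptidase of phosphate control, did not pass (-1.61, SE 0.39, adjusted p = 0.0885). The number of lower osteocyte genes was 6 without Lean d10 replicate 1, and 4 without Lean d10 replicate 2. The count was 1 without DIO d7 replicate 1 or Lean d10 replicate 3 and 0 without DIO d7 replicate 2 or 3.

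BMP ligands, secreted factors that induce cartilage and bone, followed the bone genes in part. Bmp3, an inhibitory member of the family made by bone cells, was at 8.02, 4.91 and 7.48 CPM on DIO d7 and at 32.4, 29.6 and 38.4 CPM on Lean d10 (-2.31, SE 0.26, adjusted p = 0.00756). Bmp7 was at 3.7, 1.83 and 3.07 CPM against 12.5, 11.4 and 15.2 CPM (-2.19, SE 0.34, adjusted p = 0.0215), and Bmp4 at 15.5, 9.23 and 10.6 CPM against 31.6, 37 and 44.3 CPM (-1.68, SE 0.25, adjusted p = 0.021). Bmp2 overlapped between the groups (-0.50, SE 0.33, adjusted p = 0.504). With the antagonist Sost, 4 of 21 genes of BMP and GDF signalling fell and 0 rose (0.975% of all genes lower), with a median of -0.08. Without Lean d10 replicate 1 the count was 4 and the median 0.24. The count was 2 without Lean d10 replicate 2 or DIO d7 replicate 1, and 1 without each of the others, and Bmp3 passed in every fit. Mmp13, the collagenase of hypertrophic chondrocytes and osteoblasts, is given without a test, as are the other genes of cartilage below. It was at 1211, 698 and 479 CPM on DIO d7 and at 3387, 2496 and 2928 CPM on Lean d10, and the groups did not overlap.

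**Figure D3:**
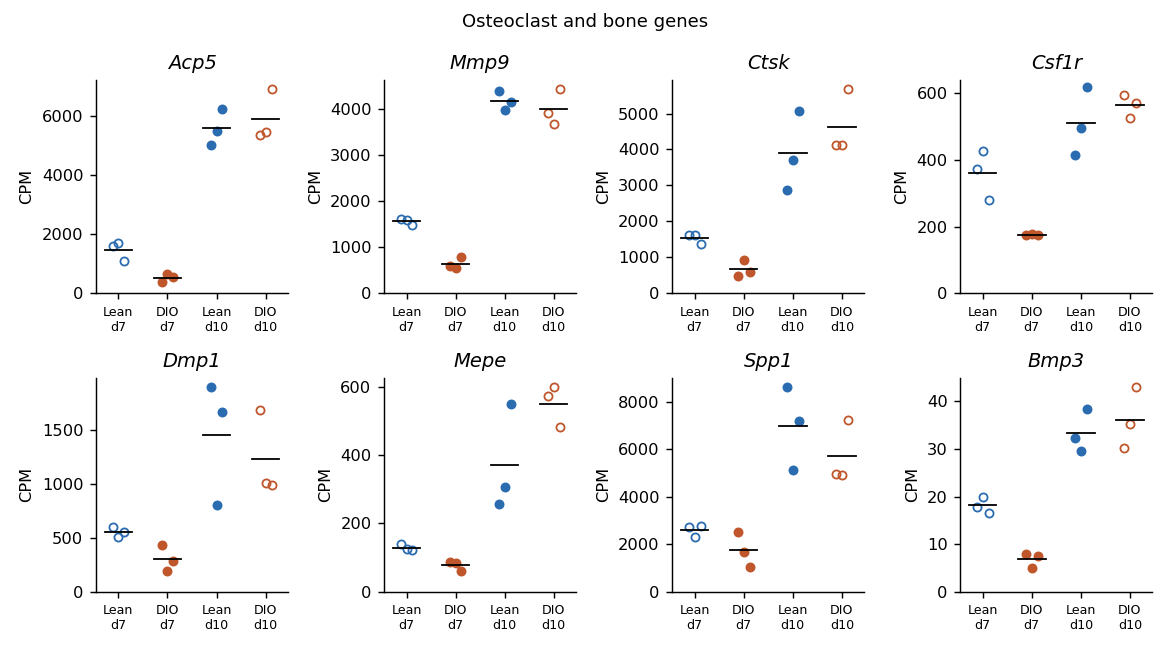
CPM of 4 genes of osteoclasts and their precursors (top) and 4 bone genes (bottom) in the 3 libraries of each of Lean d7, DIO d7, Lean d10 and DIO d10, with black bars at the means; filled points are the 2 groups compared. In all 8 genes the DIO d7 points lie below the Lean d10 points, and for Acp5 the DIO d10 mean of 5915 CPM lies near the Lean d10 mean of 5597 CPM.

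Genes of muscle regeneration rose on DIO d7 in part. Of 17 tested, 8 rose and 0 fell (0.556% of all genes higher), with a median of 2.08, and 14 did not overlap and were higher, against 10.5% of all genes. Myod1, the transcription factor of activated satellite cells, was at 6.64, 12.7 and 12.3 CPM on DIO d7 and at 1.13, 2.09 and 0.957 CPM on Lean d10 (log2 fold change 2.91, SE 0.44, adjusted p = 0.0204). Myog, which follows Myod1 as myoblasts differentiate, was at 10.9, 41.4 and 32.3 CPM against 2.44, 3.64 and 3.89 CPM (3.07, SE 0.48, adjusted p = 0.0227). Myh3, the embryonic myosin heavy chain, was at 28.3, 122 and 78.8 CPM against 9.46, 9.16 and 5.98 CPM (3.21, SE 0.49, adjusted p = 0.0215). DIO d7 replicate 1 was the lowest of its group in all 3 genes and still above every Lean d10 callus. Mymk and Mymx, the membrane proteins that fuse myoblasts, rose by 2.08 (SE 0.38) and 3.43 (SE 0.63), and the fetal isoforms Myl4 and Tnnt2 by 1.65 (SE 0.30) and 1.75 (SE 0.34).

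Chrna1 had the smallest p of all higher genes. It was at 37.2, 54.2 and 32.8 CPM on DIO d7 and at 4.01, 6.6 and 6.34 CPM on Lean d10 (2.86, SE 0.29, adjusted p = 0.00599). Its window, chr2:73580289-73580588 on the minus strand (GRCm38.p6, RefSeq), is shown because it holds CAGCTG, an E-box of the form bound by MYOD1 and MYOG, at 2 places, 92 and 44 bases before the start. CAGCTG reads the same on both strands and is in capitals.

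Chrna1: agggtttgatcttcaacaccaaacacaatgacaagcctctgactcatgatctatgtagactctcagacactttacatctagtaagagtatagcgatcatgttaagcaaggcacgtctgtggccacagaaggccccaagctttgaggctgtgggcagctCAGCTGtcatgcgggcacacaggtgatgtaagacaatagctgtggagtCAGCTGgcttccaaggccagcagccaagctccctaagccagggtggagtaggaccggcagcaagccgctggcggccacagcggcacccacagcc

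Of 6 windows of the 5 muscle regeneration genes past the threshold that have one here, 2 held CAGCTG, those of Chrna1 and Tnnt2, against 16.3% of all windows.

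The satellite cell genes did not move as one. Pax7, which marks the satellite cells, was at 1.75, 1.54 and 1.47 CPM on DIO d7 and at 0, 0.135 and 0.359 CPM on Lean d10, and did not pass (adjusted p = 0.103). Cdh15, a cadherin of satellite cells and myoblasts, had the opposite sign, at 18.3, 17.7 and 14 CPM against 45, 24.1 and 48.2 CPM (-1.25, SE 0.29, adjusted p = 0.0757). Adult muscle fibre genes did not pass: of 22 tested, 0 rose and 0 fell with edgeR, 3 had an unadjusted p under 0.05 and DESeq2 called 3, with a median of 0.50. Acta1, the actin of adult fibres, was at 5326, 2064 and 3755 CPM against 292, 3299 and 1973 CPM. Without Lean d10 replicate 1, which was the lowest of the 6 calli for this list, the median of the adult genes was -0.04 with 0 calls, whereas 13 of 17 regeneration genes were higher (2.03% of all genes higher) with a median of 2.29. Without another library, 5 regeneration genes were higher without DIO d7 replicate 1, 2 without Lean d10 replicate 2 and 1 without each of the others, which in every fit included Chrna1. Cdon and Mamstr, coactivators of myogenesis that were picked after their values were seen, rose by 1.18 (SE 0.22) and 1.83 (SE 0.30).

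Some genes of growth control are imprinted, that is, expressed from only the maternal or only the paternal copy. Of 17 tested genes of the IGF system and of imprinted growth control, 4 rose and 0 fell (0.556% of all genes higher), all 4 of them imprinted, with a median of 0.96, and 11 did not overlap and were higher, against 10.5% of all genes. The imprinted members Igf2 and Igf2r did not pass. H19, a long noncoding RNA of embryonic tissue, was at 1706, 3814 and 2288 CPM on DIO d7 and at 619, 498 and 424 CPM on Lean d10 (2.33, SE 0.36, adjusted p = 0.0213). Mest was at 479, 783 and 621 CPM against 166, 190 and 183 CPM (1.79, SE 0.24, adjusted p = 0.0129). Plagl1, a zinc finger regulator of other imprinted genes, was at 114, 58.2 and 108 CPM against 19, 12 and 23.2 CPM (2.36, SE 0.33, adjusted p = 0.0148). Peg3, another zinc finger protein, was at 576, 524 and 497 CPM against 267, 141 and 140 CPM (1.52, SE 0.30, adjusted p = 0.0492). Each of these genes separated the groups. About 23.1% of the exon length of Mest lies opposite Copg2.

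Magel2, which is imprinted and is in none of the lists, had the largest fitted increase among genes whose groups did not overlap. It had 52, 78 and 157 counts on DIO d7 and 1, 0 and 0 counts on Lean d10, so the size of its change cannot be given beyond these counts (adjusted p = 0.00757). Igf2, the fetal growth factor next to H19, was at 187, 234 and 192 CPM against 61.6, 120 and 87 CPM and did not pass (1.18, SE 0.25, adjusted p = 0.0633). It shares 62.8% of its exon length with Gm49394 on the same strand. Igf1, which many callus cells secrete, was at 188, 351 and 167 CPM against 58.7, 101 and 106 CPM (1.40, SE 0.34, adjusted p = 0.084). Leaving out Lean d10 replicate 1 gave 7 of the 17 genes as higher. The count was 2 without DIO d7 replicate 1, 1 without DIO d7 replicate 2 or 3, and 0 without Lean d10 replicate 2 or 3, with medians from 0.83 to 1.01 in these fits.

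Targets of hypoxia-inducible factors rose on DIO d7 in part. These factors switch on glycolysis and lactate export where oxygen is low, as in avascular cartilage. Of 20 genes of glycolysis and hypoxia tested, 3 rose and 0 fell (0.556% of all genes higher), with a median of 0.64, and 13 did not overlap and were higher, against 10.5% of all genes. Slc16a3, the lactate exporter MCT4, was at 175, 183 and 179 CPM on DIO d7 and at 61.5, 43.1 and 43.7 CPM on Lean d10 (1.84, SE 0.21, adjusted p = 0.00756). Egln3, a prolyl hydroxylase that marks these factors for degradation and is induced by them, was at 27.7, 19.1 and 14.9 CPM against 2, 3.91 and 3.47 CPM (2.71, SE 0.35, adjusted p = 0.0111). Bnip3, a mitophagy receptor, was at 96.1, 107 and 75 CPM against 39.7, 21.5 and 29.4 CPM (1.60, SE 0.26, adjusted p = 0.0268). Lean d10 replicate 1, the callus with the most cartilage RNA, was below every DIO d7 callus in all 3 genes. Bnip3 overlaps Gm45507 on the opposite strand over 22.3% of its exon length and shares up to 32.1% of its transcript with the near-identical genes Gm16439, Gm9419 and Gm6532.

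The windows of the 3 genes are shown because all of them hold ACGTG, the core of the element bound by hypoxia-inducible factors. It stands 27 and 14 bases before the start in Slc16a3 (chr11:120948817-120949116, plus strand), 229 bases before it in Egln3 (chr12:54203825-54204124, minus strand) and, on both strands of the same 6 bases, from 108 bases before it in Bnip3 (chr7:138909457-138909756, minus strand). The capitals mark the matches in these RefSeq windows of GRCm38.p6.

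Slc16a3: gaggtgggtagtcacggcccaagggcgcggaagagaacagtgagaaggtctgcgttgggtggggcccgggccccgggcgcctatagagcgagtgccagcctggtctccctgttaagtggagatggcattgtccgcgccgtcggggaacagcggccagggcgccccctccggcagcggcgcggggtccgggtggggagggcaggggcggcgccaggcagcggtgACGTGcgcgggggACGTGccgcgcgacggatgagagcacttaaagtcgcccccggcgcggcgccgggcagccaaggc

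Egln3: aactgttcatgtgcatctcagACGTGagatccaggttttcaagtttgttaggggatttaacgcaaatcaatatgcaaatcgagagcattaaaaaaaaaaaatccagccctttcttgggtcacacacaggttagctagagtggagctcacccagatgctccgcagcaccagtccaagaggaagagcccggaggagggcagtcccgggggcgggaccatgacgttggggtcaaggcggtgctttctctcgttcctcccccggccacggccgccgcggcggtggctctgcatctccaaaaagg

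Bnip3: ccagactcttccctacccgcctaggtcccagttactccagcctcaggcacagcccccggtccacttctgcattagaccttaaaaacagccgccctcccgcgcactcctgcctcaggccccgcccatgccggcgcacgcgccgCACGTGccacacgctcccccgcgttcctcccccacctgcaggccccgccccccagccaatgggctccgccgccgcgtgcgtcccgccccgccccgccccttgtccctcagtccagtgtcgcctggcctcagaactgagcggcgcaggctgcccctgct

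Of all 32851 windows, 19.6% held ACGTG on either strand.

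Most other members of the hypoxia list had a higher mean but did not pass. Of all 20 genes, 18 had a higher and 2 a lower mean on DIO d7. Slc2a1, the glucose transporter GLUT1, was at 95.2, 85.3 and 86 CPM on DIO d7 and at 75.4, 23.4 and 21.8 CPM on Lean d10 (1.12, SE 0.45, adjusted p = 0.274). Here Lean d10 replicate 1 came close to the DIO d7 calli and the other 2 did not. Pgk1, a glycolytic enzyme with 4 near-identical copies in the annotation, was at 332, 485 and 308 CPM against 197, 164 and 177 CPM (1.05, SE 0.24, adjusted p = 0.0707). Vegfa, the vessel growth factor, overlapped, at 187, 118 and 153 CPM against 217, 120 and 165 CPM (-0.15, SE 0.27, adjusted p = 0.838). In the fit lacking Lean d10 replicate 1, 8 of the 20 genes were higher and the median was 0.99. The count was 2 without Lean d10 replicate 2 or DIO d7 replicate 3, 1 without DIO d7 replicate 1 or 2, and 0 without Lean d10 replicate 3. Slc16a1, a second lactate transporter picked after its value was seen, rose by 1.14 (SE 0.20, adjusted p = 0.0338).

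**Figure D4:**
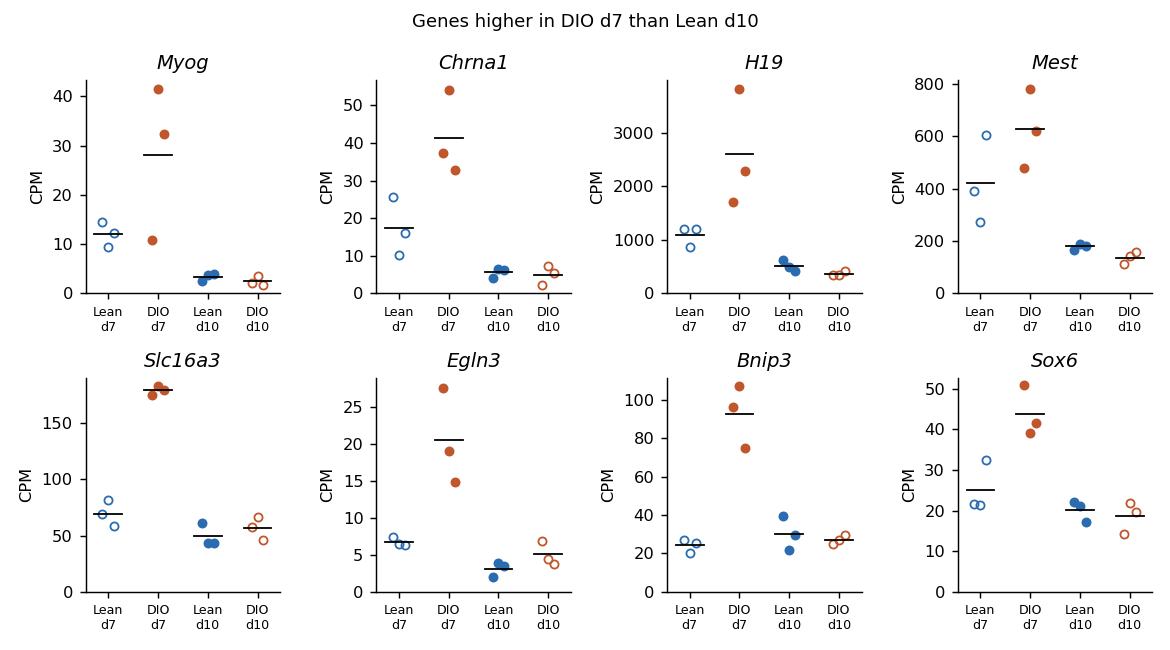
CPM of 8 genes that were higher on DIO d7 than on Lean d10, in the 3 libraries of each of Lean d7, DIO d7, Lean d10 and DIO d10, with black bars at the means; filled points are the 2 groups compared. In every gene but Bnip3 the Lean d7 mean lies between that of DIO d7 and those of both d10 groups. For Slc16a3 it is 69.5 CPM, near the d10 means of 49.4 and 56.7 CPM. The Lean d7 mean of Bnip3, 24.1 CPM, is below both d10 means.

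Because the days were chosen by Acan and Col2a1, genes of cartilage are described without a test. The 21 genes of cartilage matrix had a median log2 fold change of 0.07 with all calli and 1.27 without Lean d10 replicate 1. With all calli, 13 had a higher and 8 a lower mean on DIO d7. Without overlap, 3 were higher (10.5% of all genes) and 2 were lower (11.4% of all genes). Matn3, a matrix adaptor protein, was at 558, 414 and 556 CPM on DIO d7 and at 389, 108 and 120 CPM on Lean d10. Ucma, an early marker of cartilage matrix, was at 175, 194 and 268 CPM against 172, 40.3 and 22.4 CPM. In both, the DIO d7 calli were level with or above Lean d10 replicate 1 and well above the other 2. Chad, an adhesive protein of mature cartilage, went the other way, at 343, 75.2 and 228 CPM against 1972, 584 and 498 CPM. So did Otos at low levels, 0.564, 0.293 and 0.401 CPM against 3.88, 2.49 and 1.26 CPM. Cytl1 and Snorc had log2 fold changes of -2.06 and -1.41, with overlapping groups. Prg4, which encodes the lubricant lubricin, was at 76.5, 131 and 48.1 CPM against 26, 15.7 and 22.4 CPM. Col10a1, the collagen of hypertrophic chondrocytes, was at 5658, 1431 and 1665 CPM on DIO d7 and at 12046, 3538 and 4619 CPM on Lean d10.

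The SOX factors of chondrocytes separated the groups. Sox9, the factor that sets the chondrocyte lineage, was at 148, 160 and 165 CPM on DIO d7 and at 133, 33.2 and 36.8 CPM on Lean d10. Its partner Sox6 was at 50.8, 39 and 41.6 CPM against 22, 21 and 17.2 CPM, and Sox5 at 10.3, 11.1 and 11.6 CPM against 7.58, 3.64 and 3.05 CPM. In all 3 genes each DIO d7 callus was above each Lean d10 callus, the one with the most Acan included. Genes of glycosaminoglycan synthesis and sulfation were mixed. Of 20 tested, 14 had a higher and 6 a lower mean on DIO d7. Without overlap, 10 were higher (10.5% of all genes) and 3 were lower (11.4% of all genes). The median was 0.53, or 0.82 without Lean d10 replicate 1. Slc26a2, the sulfate transporter that supplies proteoglycan sulfation, was at 191, 287 and 222 CPM against 91.8, 48.2 and 52.1 CPM, and Csgalnact1, which starts chondroitin sulfate chains, at 62.9, 92.6 and 49.6 CPM against 24.6, 13.7 and 14.1 CPM. Chst3, a sulfotransferase of chondroitin, had the opposite order, at 7.33, 3 and 4.74 CPM against 14.5, 8.15 and 10.9 CPM, and Chst11 and Xylt1, which also act on these chains, overlapped.

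Tendon genes were higher on DIO d7 in part. Of 10 tested, 3 rose and 0 fell (0.556% of all genes higher), with a median of 1.11. Scx, the transcription factor of tendon progenitors, was at 25.9, 43.1 and 27.5 CPM on DIO d7 and at 9.21, 12.9 and 12.5 CPM on Lean d10 (1.47, SE 0.27, adjusted p = 0.0373). Thbs4, a matrix protein of tendon and muscle, was at 296, 647 and 207 CPM against 71.3, 93.6 and 90.7 CPM (2.16, SE 0.40, adjusted p = 0.0398). Col14a1, which organizes collagen fibrils, was at 80.2, 92.9 and 89.6 CPM against 17, 31.7 and 34.9 CPM (1.65, SE 0.26, adjusted p = 0.0249). Mkx, another tendon factor, did not pass (0.70, SE 0.23, adjusted p = 0.178). Tnmd, a further tendon marker, overlapped, at 27.8, 51.6 and 23.1 CPM against 27.2, 38.9 and 30.3 CPM (0.08, SE 0.31, adjusted p = 0.931). Of the 10 genes, 8 had a higher and 2 a lower mean on DIO d7. The count was 5 without Lean d10 replicate 1, 1 without DIO d7 replicate 3 and 0 without each of the other 4 libraries.

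Secreted regulators of WNT and FGF signalling split by direction. Sfrp1, a decoy for WNT ligands, was at 151, 636 and 135 CPM on DIO d7 and at 6.33, 13.9 and 14.9 CPM on Lean d10, a fitted 26.1-fold difference (4.71, SE 0.68, adjusted p = 0.0172). The inhibitors Dkk1 and Wif1 fell instead, Wif1 from 168, 180 and 244 CPM on Lean d10 to 99.5, 66.7 and 65.5 CPM on DIO d7 (-1.37, SE 0.24, adjusted p = 0.0325). Of 23 genes of WNT signalling tested, 1 rose and 2 fell (0.556% of all genes higher and 0.975% lower), with a median of -0.09. The call of Sfrp1 was lost without Lean d10 replicate 2 or 3, and Dkk1 and Wif1 were both kept only without Lean d10 replicate 1. Of 14 genes of FGF signalling, Fgfr4, a receptor found in regenerating muscle, rose (3.27, SE 0.50, adjusted p = 0.0215), and Fgf1 and Etv5, a ligand and a transcription factor induced by the pathway, fell (-1.46 and -1.58, adjusted p = 0.0437 and 0.0479). The median of the list was -0.64, against the same shares of all genes, 0.556% higher and 0.975% lower. Both falls were lost in each fit that left out 1 library other than Lean d10 replicate 1. Without that callus 3 FGF genes were higher and 2 lower (2.03% of all genes higher and 1.82% lower), with a median of -0.58, and the WNT median was 0.09.

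Inflammatory genes had higher levels on DIO d7 that differed widely between its calli. Of 20 cytokines, chemokines and related genes tested, 2 rose and 0 fell (0.556% of all genes higher), 17 had a higher mean and 8 did not overlap and were higher (10.5% of all genes), with a median of 2.14. Averaged over its genes, log2 CPM was 4.23, 2.85 and 1.85 on DIO d7 and between 1.0 and 1.2 on Lean d10, so each DIO d7 callus was above each Lean d10 callus. Cxcl5, a chemokine that attracts neutrophils, was at 71.3, 70.6 and 3.47 CPM on DIO d7 and at 0.188, 0.876 and 0.299 CPM on Lean d10 (6.72, SE 1.14, adjusted p = 0.0295). DIO d7 replicate 3 was far below the other 2 and still above the lean calli. Saa3, an acute-phase protein, was at 7.58, 13.5 and 5.74 CPM against 0.501, 0.337 and 0.777 CPM (4.01, SE 0.50, adjusted p = 0.0102). Il1b, the cytokine interleukin 1 beta, was at 174, 61.6 and 19.7 CPM against 2.38, 11 and 13.3 CPM and did not pass (3.25, SE 0.81, adjusted p = 0.095). Tnf was at 21.5, 1.24 and 1.2 CPM against 2, 1.48 and 0.718 CPM, so that only DIO d7 replicate 1 stood above the lean range. Without that replicate the median of the list was 1.31, and Saa3 and Cxcl5 were not both past the threshold, with 1 call. The count was 3 without DIO d7 replicate 3, 4 without Lean d10 replicate 1, 1 without Lean d10 replicate 2 or 3 and 0 without DIO d7 replicate 2. Il33, an alarmin of stromal cells, rose as well (55, 19.5 and 7.95 CPM against 2.07, 2.42 and 2.33 CPM, 3.58, SE 0.64, adjusted p = 0.0369).

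Blood and immune cell genes gave few calls. Of 22 genes common to leukocytes, 29 of the interferon response, 16 of dendritic cells and class II antigen presentation, 21 erythroid genes and 15 of platelets, 0 were past the threshold in either direction with edgeR, 9 of these 103 had an unadjusted p under 0.05, and DESeq2 called 1. Means were higher on DIO d7 in 20 of the 21 erythroid genes and all 15 platelet genes, with medians of 0.92 and 0.7. Lean d10 replicate 1 had the lowest mean log2 CPM of the 6 libraries in both lists, 1.24 and 0.33. Without it the medians were 0.43 and 0.27, and 1 erythroid gene was called lower (1.82% of all genes lower). Of 21 neutrophil genes, Mmp9 alone was past the threshold, and lower (0.975% of all genes lower), although 20 had a higher mean on DIO d7 and the median was 1.11. S100a8, an abundant granulocyte protein, was at 1141, 515 and 1867 CPM on DIO d7 and at 74.9, 1197 and 474 CPM on Lean d10 (1.02, SE 0.81, adjusted p = 0.59). Elane, the elastase of neutrophil precursors, was at 68.7, 26.1 and 133 CPM against 2.63, 85 and 46.4 CPM (0.77, SE 0.93, adjusted p = 0.737). Lean d10 replicate 1 was lowest in both genes, and without it the median of the list was 0.59. The 19 B lineage genes all had a lower mean on DIO d7, with a median of -1.34, and 0 were called by edgeR, by DESeq2 or at an unadjusted p under 0.05. Cd79a, part of the B cell receptor, was at 2.69, 1.39 and 5.54 CPM against 0.626, 16.6 and 9.69 CPM, so the groups overlapped through the same lean callus. Without it the median was -1.92 with 1 call. Of 17 adipocyte genes, 0 were past the threshold with edgeR or DESeq2, 2 had an unadjusted p under 0.05 and the median was -0.05.

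Genes of the cell cycle had higher means on DIO d7 throughout, but a single call (0.556% of all genes higher). Of 28 tested, all 28 had a higher mean and 18 did not overlap, against 10.5% of all genes, and the median was 0.90, or 0.73 without Lean d10 replicate 1. Cenpe, a kinesin of the mitotic spindle, passed (39.2, 49.1 and 39.3 CPM against 16.5, 24.4 and 16.1 CPM, 1.15, SE 0.23, adjusted p = 0.0498), and it passed in none of the fits that left out 1 library. Cdk1, the kinase that drives mitosis, was at 58.8, 105 and 75.3 CPM against 26, 42.2 and 28 CPM (1.30, SE 0.27, adjusted p = 0.0565). Mki67, a marker of cycling cells, overlapped (0.69, SE 0.33, adjusted p = 0.355).

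Among the remaining genes with the largest changes or smallest p, Mt3, a metal-binding metallothionein, had the smallest p of all: 9.02, 11.4 and 14.6 CPM on DIO d7 against 117, 121 and 149 CPM on Lean d10 (-3.47, SE 0.24, adjusted p = 0.00296). Ckb, the creatine kinase of brain type that osteoclasts also make, was at 97.3, 147 and 174 CPM against 983, 1141 and 1109 CPM (-2.96, SE 0.28, adjusted p = 0.00526). It shares 30.5% of its transcript with Gm12892, which fell too. Lipc, a lipase, fell from 31.8, 44.9 and 46.9 CPM on Lean d10 to 7.27, 4.76 and 4.94 CPM on DIO d7 (-2.87, SE 0.27, adjusted p = 0.00526). Rufy4 and the neuropeptide gene Nmb fell by -2.60 (SE 0.21) and -2.36 (SE 0.22). Hsd11b2 was at 7.71, 10.5 and 9.55 CPM against 0.752, 0.876 and 0.538 CPM (3.66, SE 0.37, adjusted p = 0.00599). Chl1, a neural cell adhesion protein, was at 19, 71.8 and 22.4 CPM against 2.94, 1.48 and 1.14 CPM (4.32, SE 0.62, adjusted p = 0.0169). Amacr, an enzyme of branched fatty acid oxidation, rose by 2.18 (SE 0.27, adjusted p = 0.0099). Several others rested on few reads. Chga, which encodes a protein of secretory granules, had 21, 38 and 39 counts on DIO d7 and 1, 2 and 1 counts on Lean d10. Masp1, a protease of the complement system, had 39, 55 and 28 counts against 4, 2 and 0 counts, and Cdhr1 had 15, 35 and 20 counts against 2, 1 and 0 counts. Their adjusted p were 0.0185, 0.0422 and 0.0491. Greb1, a gene induced by estrogen, rose by 3.84 (SE 0.75), and Nyap2 and Slc18a1, a transporter of monoamines, fell by -3.85 (SE 0.43) and -3.19 (SE 0.35).

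Few markers of other cells passed the threshold. Cd5, a surface protein of T cells, was at 0.439, 0.513 and 1.14 CPM on DIO d7 and at 3.88, 6.33 and 7.71 CPM on Lean d10 (-3.09, SE 0.51, adjusted p = 0.0268), the only call among 18 genes of T and NK cells. Of these 18 genes, 17 had a lower mean and 1 a higher mean, with a median of -0.8. Without Lean d10 replicate 1 the median of the T and NK cell list was -1.13, with 1 call. Fap, a protease of activated fibroblasts, was at 134, 107 and 92.2 CPM against 252, 311 and 371 CPM (-1.50, SE 0.23, adjusted p = 0.0212), the only call among 21 genes of fibroblasts and provisional matrix. The list as a whole had the opposite sign, with 17 higher means and a median of 0.45. Col3a1, a collagen of young connective tissue, was at 7594, 11474 and 7054 CPM against 4443, 2908 and 4835 CPM (1.09, SE 0.33, adjusted p = 0.155). Without Lean d10 replicate 1 the median was 0.78, with 3 genes higher and 1 lower, and Fap did not pass without any 1 of the other 5 libraries. L1cam, an adhesion protein of nerves and Schwann cells, was at 12.3, 12.9 and 21.4 CPM against 6.01, 4.92 and 4.48 CPM (1.58, SE 0.31, adjusted p = 0.0495), the only call among 13 genes of Schwann cells and nerve. Cd5, Fap and L1cam each separated the groups. Over all genes, 0.556% were past the threshold and higher and 0.975% lower.

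**Figure D5:**
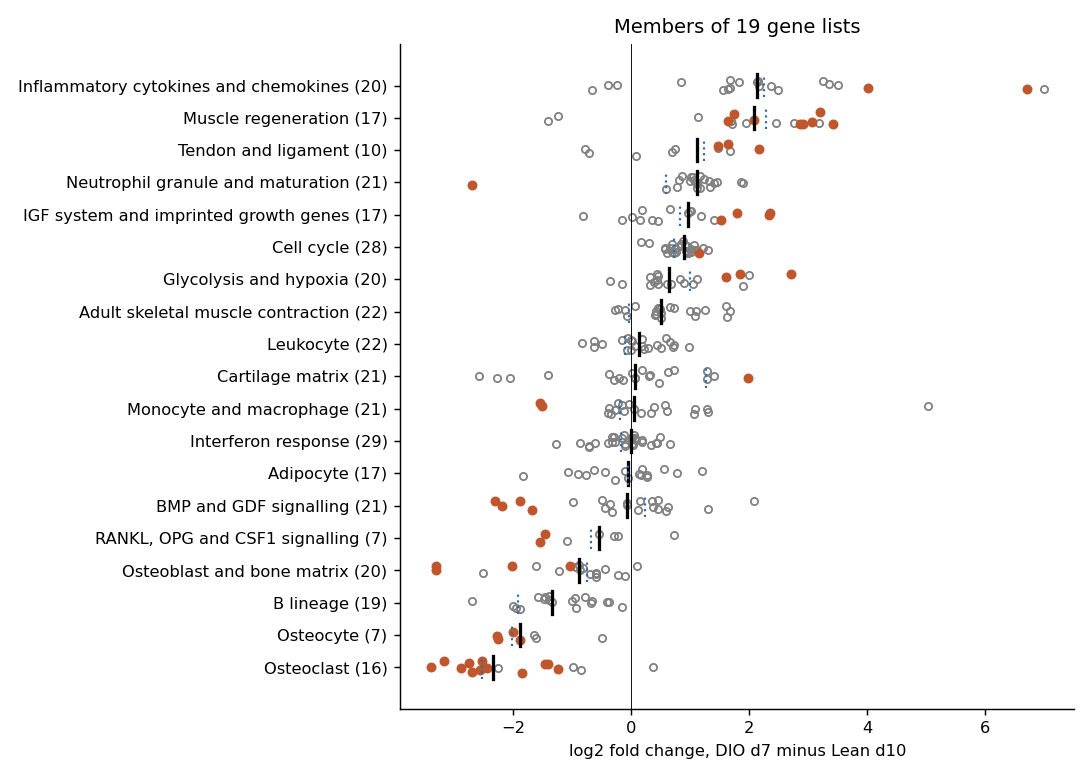
Log2 fold change of DIO d7 minus Lean d10 for the tested members of 19 gene lists, with their number in brackets; filled points passed the threshold, black bars are the medians and blue dotted bars the medians without Lean d10 replicate 1. Osteoclast, osteocyte and osteoblast medians lie below 0 with either bar, whereas the cartilage median moves from 0.07 to 1.27.

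The other pair of groups from the same days, DIO d10 and Lean d7, shares no library with the 6 and has the same diets with the days exchanged. In it, 281 of 15640 genes (1.8%) were higher on DIO d10 and 415 (2.65%) lower, and 49.3% of all genes tested had a higher fitted level on DIO d10. Of the 151 genes lower on DIO d7 than on Lean d10, all 151 had a higher fitted level on DIO d10 than on Lean d7, and 95 of them passed the threshold. Of the 86 genes higher on DIO d7, 82 were tested, 78 had a lower level on DIO d10 and 30 passed. In both pairs the d10 group had the higher level for the first set of genes and nearly always the lower level for the second. The exceptions were Bnip3, Csrp3, Hspb8 and Serinc2, which were higher in the DIO group of both pairs, none of them past the threshold in the second. The genes were picked by their calls in the first pair, and the second pair was added after the data were seen. The parts of day and diet were not tested.

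For the osteoclast list the second pair gave a median of 1.21 with 11 of 16 genes higher on DIO d10. Acp5 was at 5354, 5478 and 6913 CPM on DIO d10 and at 1592, 1720 and 1084 CPM on Lean d7 (2.02, SE 0.22, adjusted p = 0.00147). Both d10 groups were at like levels of Acp5, and Lean d7 lay between them and DIO d7. Osteocyte genes had a median of 0.89 with 4 higher, and Mepe was at 572, 598 and 481 CPM on DIO d10 against 141, 125 and 121 CPM on Lean d7 (adjusted p = 0.000301). Muscle regeneration genes had a median of -1.58 with 8 lower and 1 higher. Myog was at 2.15, 3.48 and 1.76 CPM on DIO d10 and at 14.5, 9.51 and 12.2 CPM on Lean d7 (-2.28, adjusted p = 0.00286). The IGF and imprinted list had a median of -0.58 with 4 lower, among them H19 at -1.56 (adjusted p = 0.00175).

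The list of glycolysis and hypoxia had a median of 0.02 in the second pair. With edgeR 0 of 20 genes were past the threshold and 5 had an unadjusted p under 0.05, and DESeq2 called 2. Slc16a3 was at 57.2, 66.6 and 46.2 CPM on DIO d10 and at 68.8, 81.3 and 58.3 CPM on Lean d7 (-0.28, adjusted p = 0.376), and Bnip3 at 24.7, 27 and 29.7 CPM against 26.7, 20.3 and 25.4 CPM (0.18, adjusted p = 0.567). Egln3 was at 6.9, 4.49 and 3.81 CPM on DIO d10 and at 7.45, 6.5 and 6.32 CPM on Lean d7 (-0.4, adjusted p = 0.429). Of these 3 genes, Bnip3 alone kept its sign. In all 3 the DIO d7 calli were above all 9 libraries of the other groups of d7 and d10. The same held for Chrna1 and H19, which had the opposite sign in the second pair.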

How the data were processed

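The authors trimmed reads with BBDuk, aligned them to GRCm38 with HISAT2 2.1.0 and counted them per gene with HTSeq, and deposited a table of raw counts. The strand option and annotation of the counting are not given in the sources used here. The 3 DIO d7 and 3 Lean d10 libraries were compared with the quasi-likelihood test of edgeR 4.0.16 (R 4.3.3), with TMM factors and filterByExpr, two-sided, and adjusted p under 0.05 counted as a call. The SE was the log2 fold change divided by the square root of F. Total counts were 14888242 to 20489678, and the p-values measure the spread between these 3 mice per group. Gene positions are those of GENCODE M21, promoter windows those of RefSeq (GRCm38.p6), and near-identical transcripts were found with BLAST 2.17.0.

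The members and 42 gene lists were chosen with earlier results of these data known. Genes were named by a rule: cartilage matrix genes, the first 4 members of each list, up to 4 members past the threshold, and, among genes whose groups did not overlap and whose higher mean reached 1 CPM, the 12 largest changes and 8 smallest adjusted p in each direction. Atp6v0d2, Itgb3, Clcn7, Tcirg1, Nfatc1, Ostm1, Car2, Tm4sf19, Col1a1, Ibsp, Phex, Mymk, Myl4, Tnnt2, Cdh15 and Pgk1, the lysosomal and V-ATPase genes, Snx10, Vdr, Cdon, Mamstr, Slc16a1, Csrp3, Hspb8 and Serinc2, the motifs, and the comparison of DIO d10 with Lean d7 were chosen after their values were seen. DESeq2 1.42.0, other scalings, filters, fold thresholds and sets of libraries were tried as alternatives. A withheld item is not reported here.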

Additional observations from a re-analysis of the deposited data

How the results depend on the processing

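The number of genes past the threshold depended on the tool, the filter and the libraries. Against 237 genes (86 higher, 151 lower), DESeq2 gave 905 (470 higher, 435 lower), no filter but 1 count 555 (266 and 289), a fit of all 30 libraries 1878 (903 and 975), a fit of the 12 libraries of d7 and d10 984 (443 and 541), and a test against a 1.5-fold change 74 (23 and 51). The cause was not tested. RLE factors (235), upper-quartile factors (243) and a filter of 0.5 CPM (218) stayed within 1.5 times. DESeq2 and the fit with no filter held all 237 genes, and the fit of all 30 libraries 228. With 1 library left out, the count ran from 35 without DIO d7 replicate 2 to 613 without Lean d10 replicate 1, the higher genes from 3 to 323 and the lower genes from 27 to 290. Of 91 genes named in the text that passed, 91 did so with RLE factors and with DESeq2, 41 with the 1.5-fold threshold, and between 22 and 90 with 1 library left out.

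The replicate numbers follow the order of the samples, and the sample titles give no pairing of mice between the groups. Deviations from the group mean correlated across genes at -0.106, -0.356 and -0.0578 for same-numbered libraries. For differently numbered libraries the correlations ran from -0.214 to 0.366. They cannot decide whether mice were paired. With the replicate block, 63 genes passed (20 higher, 43 lower), 57 of them among the 237.

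Some genes that did not pass changed sign with 1 library left out. Car2 ran from -1.22 to 1.21, Ibsp from -0.51 to 0.02, Vegfa from -0.35 to 0.09 and Tnf from -0.21 to 3.00.

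For DIO d10 against Lean d7, the alternatives were chosen after seeing the data. With no filter, 48 of the 86 higher genes were called lower on DIO d10, and with 1 library left out 12 (without DIO d10 replicate 3) to 34, against 30. Of the 151 lower genes, 38 (without DIO d10 replicate 3) to 92 were called higher on DIO d10, against 95. Starting from the genes called without Lean d10 replicate 1, 284 of 310 higher genes were lower on DIO d10, 81 of them called, and 283 of 287 lower genes were higher. With 3 mice per group, differences smaller than the spread between calli were not detectable.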
